A study of Homo sapiens with 8 samples.

Results

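HNF4A, HNF4G, FOXA1, FOXA2, FOXA3, CDX2, PDX1 and GATA6 encode transcription factors that set up and maintain endoderm and pancreas identity. These 8 genes were taken by symbol from a table of 58870 genes, and the choice was made with earlier results of these data known. RNA was sequenced from 8 samples of CFPAC-1 cells, a long-established line from a human pancreatic ductal adenocarcinoma. In 4 samples the cells carried an empty vector and in the other 4 an ADRA2A transgene, which encodes the alpha-2A adrenergic receptor. All 8 samples were grown untreated for 72 hours in IMDM medium with serum and antibiotics, and the genotype was their only labelled difference. Neither the promoter that drives the transgene nor the clonal or pooled origin of the cells was given in the sources used here. Nothing tied the samples of a group to separate cultures or transductions, so the p-values measure the spread between these samples, which may be technical.

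The factors act as a layered network. FOXA proteins open closed chromatin at endoderm enhancers, GATA6 works beside them in early endoderm, and PDX1 then marks the pancreatic field. HNF4A and HNF4G are closely related nuclear receptors that switch on liver, gut and kidney genes, and CDX2 sets intestinal identity. In pancreatic cancer, GATA6, HNF4A and PDX1 are known as markers of the classical, gland-like state.

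Library totals ran from 14427035 to 17528915 counts. ADRA2A had 0 counts in each of the 4 empty-vector libraries and between 112 and 172 in the ADRA2A libraries, which matched the labels. Keratin genes listed as ductal epithelial markers were abundant, with KRT8 at 4880 and KRT19 at 2830 CPM (counts scaled to a library of 1000000) in the empty-vector cells. CFTR, a duct channel gene, stayed between 4 and 20 counts. Of 12 islet genes 7 had no count in any library, INS and GCG among them, and 12 acinar genes together reached at most 3.23 CPM. The blood cell markers PTPRC and CD3E each stayed at or below 4 counts, and the summed level of the 12 markers of other cell types, most of it CD68 and LYZ, was 122 to 136 CPM in empty-vector and 201 to 215 CPM in ADRA2A libraries. Called genes made up 42.7% of all genes tested (21.6% higher and 21.1% lower, by the edgeR test described below). Of these lists 1 islet gene was tested and not called, 1 acinar gene (SPINK1) was higher, and 3 of 4 markers of other cell types (LYZ, CD68 and PECAM1) were higher. SPINK1 and PECAM1 passed the filter on low counts only through the ADRA2A libraries. LUM, the marker of other cell types that was not called, passed only through the empty-vector libraries. Without these genes, a count added after the data were seen, 0 acinar genes were tested. Of the markers of other cell types 2 were then tested, and 2 were higher. Of 9 ductal markers 3 were higher (KRT19, EPCAM and MUC1) and 4 lower (CA2, KRT7, CDH1 and KRT18). CA2, a carbonic anhydrase gene, fell from 11.9 ± 0.263 to 2.96 ± 0.900 CPM (SD, 4 libraries each), the largest change among them, and KRT7 had a log2 fold change of -0.43. The part of these markers in the results was not tested. In bulk samples, fewer cells of a type and less RNA per cell cannot be told apart.

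Start regions are shown for HNF4A and CDX2 because both genes differed clearly between the groups. HNF4A has a distal and a proximal start, and the deposited counts pool transcripts from both. Each line gives the 250 bases before a RefSeq start on GRCh38.p14, with matches to the letters searched in capitals. The distal region lies at chr20:44355449-44355698 and the proximal at chr20:44400989-44401238, both on the plus strand, and the CDX2 region at chr13:27969316-27969565 on the minus strand.
HNF4A distal start: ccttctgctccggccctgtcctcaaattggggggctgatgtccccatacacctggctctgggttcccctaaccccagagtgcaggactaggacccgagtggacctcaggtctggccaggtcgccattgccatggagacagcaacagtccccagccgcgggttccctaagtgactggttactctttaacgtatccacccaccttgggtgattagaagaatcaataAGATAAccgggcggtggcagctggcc
HNF4A proximal start: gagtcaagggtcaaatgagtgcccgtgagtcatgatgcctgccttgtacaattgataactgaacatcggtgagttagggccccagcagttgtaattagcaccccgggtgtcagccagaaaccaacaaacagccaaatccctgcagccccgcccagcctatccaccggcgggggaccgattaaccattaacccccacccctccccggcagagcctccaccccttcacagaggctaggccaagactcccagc
CDX2 start: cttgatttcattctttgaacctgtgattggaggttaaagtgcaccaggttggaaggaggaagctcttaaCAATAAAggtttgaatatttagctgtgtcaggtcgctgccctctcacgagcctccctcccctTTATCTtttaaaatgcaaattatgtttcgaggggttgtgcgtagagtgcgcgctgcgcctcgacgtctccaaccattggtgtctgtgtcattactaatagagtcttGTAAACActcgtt

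Letters of the factors' own motifs were searched on both strands: CAAAGTCCA for HNF4, TGTTTAC or TGTTTGC for FOXA, AGATAA for GATA and TTTATNG for CDX. The distal HNF4A region held the GATA letters, 26 to 21 bases before the start. The CDX2 region held the letters of 3 of the factor classes: CDX at 181 to 175 bases, GATA at 119 to 114 bases and FOXA at 13 to 7 bases before the start. In the same 250 bases of 35116 RefSeq promoters, 8.93% held the CDX letters, 9.17% the GATA letters, 6.09% the FOXA letters and 0.325% the HNF4 letters. Over the 15532 promoters of genes tested the shares were lower, at 5.68% for CDX, 5.27% for GATA, 4.6% for FOXA and 0.283% for HNF4. RefSeq promoters were found for 5 of the 8 genes. Besides HNF4A and CDX2, the FOXA1 region held the FOXA letters and the FOXA3 region the CDX letters. None of the letters searched was found in the proximal HNF4A window or in the GATA6 window. A match describes the letters only, and no binding was measured.

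The comparison addressed how a gain of ADRA2A alters expression in these cells. All 8 genes passed the filter on low counts, with at least 27 counts in every library. With edgeR's quasi-likelihood test and Benjamini-Hochberg adjustment over all genes tested, HNF4A, HNF4G, CDX2 and PDX1 were higher in the ADRA2A cells, GATA6 was lower, and FOXA1, FOXA2 and FOXA3 did not pass the threshold of 0.05. That is 4 of 8 genes called higher against 21.6% of the 14785 genes tested, and 1 of 8 called lower against 21.1%. In HNF4A, HNF4G and CDX2 every ADRA2A library lay above every empty-vector library. These are 3 of 8 genes (37.5%), against 19.7% of all genes tested that did not overlap in this direction and 39.2% in either direction. The median log2 fold change of the 8 genes was 0.37, against 0.00 over all genes tested.

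**Figure D1:**
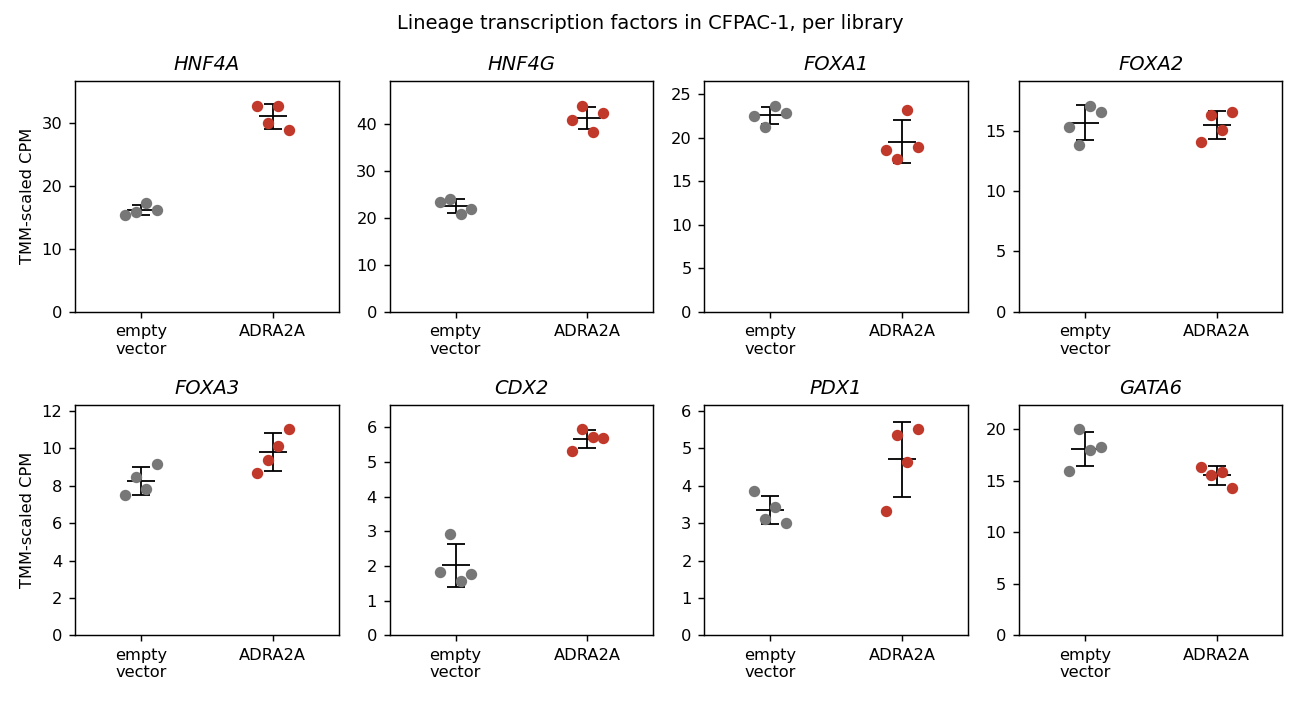
TMM-scaled CPM of the 8 genes in each library (y axis, from 0), with grey points for the 4 empty-vector and red points for the 4 ADRA2A libraries; black bars give mean ± SD. For HNF4A, HNF4G and CDX2 all red points lie above all grey points, and for the other 5 genes the groups overlap.

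HNF4A (ENSG00000101076.16; chromosome 20, 44355699 to 44432845, plus strand) encodes a nuclear receptor that governs hepatocyte and enterocyte genes. On a CPM scale adjusted between libraries by TMM, edgeR's trimmed mean normalization, it had 15.4, 15.8, 17.3 and 16.1 CPM in empty-vector replicates 1 to 4. It had 32.6, 30.0, 32.7 and 28.8 CPM in ADRA2A replicates 1 to 4. The lowest ADRA2A library stood well above the highest empty-vector library. HNF4A rose 1.92-fold, a log2 fold change of 0.94 ± 0.07 (SE, 95% interval 0.79 to 1.09; edgeR adjusted p = 1.77e-09).

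HNF4G (ENSG00000164749.11; chromosome 8, 75407914 to 75566834, plus strand) encodes the paralog that is best known from the intestine. Its empty-vector libraries held 23.5, 24, 20.9 and 21.9 CPM. Its ADRA2A libraries held 41.0, 44, 38.4 and 42.4 CPM, again with no overlap. HNF4G rose 1.84-fold, a log2 fold change of 0.88 ± 0.06 (SE, 95% interval 0.74 to 1.01; edgeR adjusted p = 1.24e-09).

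No difference was detected between the changes of the paralogs. Inside each library the ratio of HNF4A to HNF4G counts lay between 0.654 and 0.827 in the empty-vector cells and between 0.679 and 0.851 in the ADRA2A cells, so the groups overlapped. The log2 ratio differed by 0.06 between the groups, with SDs of 0.16 in both, and the exact two-sided permutation test over the 8 libraries gave p = 0.629 (adjusted p = 0.629 over the 5 ratios of gene pairs that were compared). Such a ratio does not depend on the scaling between libraries. Per length, as length-scaled abundances that sum to 1000000 in a library (TPM) with the canonical transcript of each gene, the sum of both paralogs went from 20.3 ± 0.466 to 38.1 ± 1.04 TPM (SD, 4 libraries each), 1.88-fold. HNF4A made up 39.3% ± 2.64 of that sum in the empty-vector and 40.4% ± 2.71 in the ADRA2A cells (SD, 4 libraries each). With the union of all annotated exons as the length, its share was 25.3% and 26.1%.

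CDX2 (ENSG00000165556.9; chromosome 13, 27960918 to 27969315, minus strand), the homeobox regulator of intestinal identity, had the largest fold change of the 8 genes and the lowest CPM of them in the empty-vector cells. Empty-vector replicates 1 to 4 had 1.82, 2.92, 1.57 and 1.77 CPM, from 31, 43, 27 and 27 counts. ADRA2A replicates 1 to 4 had 5.33, 5.94, 5.73 and 5.69 CPM, from 77, 90, 100 and 90 counts. Empty-vector replicate 2 was the highest of its group, and it still lay below every ADRA2A library. CDX2 rose 2.83-fold, a log2 fold change of 1.5 ± 0.19 (SE, 95% interval 1.10 to 1.90; edgeR adjusted p = 2.95e-06). With any 1 library left out its log2 fold change lay between 1.39 and 1.72, the latter without empty-vector replicate 2.

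PDX1 (ENSG00000139515.6; chromosome 13, 27920000 to 27926313, plus strand), which encodes the homeobox factor of the early pancreas and of beta cells, lies 34.6 kb from CDX2. Its empty-vector libraries had 3.86, 3.12, 3.43 and 3.01 CPM, and its ADRA2A libraries had 3.32, 5.35, 4.64 and 5.50 CPM. ADRA2A replicate 1 fell inside the range of the empty-vector libraries and the remaining ADRA2A libraries lay above it. The log2 fold change of PDX1 was 0.48 ± 0.18 (SE, 95% interval 0.11 to 0.86; edgeR adjusted p = 0.0363). This call did not hold in 6 of the 8 fits that left out 1 library, those without empty-vector replicate 2, 3 or 4 or ADRA2A replicate 2, 3 or 4, where the adjusted p reached 0.114. The ratio of CDX2 to PDX1 counts went from between 0.458 and 0.935 in the empty-vector libraries to between 1.03 and 1.60 in the ADRA2A libraries, a log2 difference of 1.07. Its exact two-sided permutation p was 0.0286, the smallest that 4 against 4 libraries allow, and 0.0714 after adjustment over the 5 ratios.

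GATA6 (ENSG00000141448.9; chromosome 18, 22169589 to 22202528, plus strand) encodes a zinc finger factor of endoderm. It had 16, 20.0, 18 and 18.3 CPM in the empty-vector and 16.4, 15.6, 15.9 and 14.3 CPM in the ADRA2A libraries. Empty-vector replicate 1 lay within the ADRA2A range. GATA6 thus went the other way from HNF4A and CDX2, with a log2 fold change of -0.21 ± 0.08 (SE, 95% interval -0.39 to -0.04; edgeR adjusted p = 0.0454). The call was lost in 10 of 15 other fits, among them DESeq2 (adjusted p = 0.0762) and the fits without empty-vector replicate 2, 3 or 4 or ADRA2A replicate 2, 3 or 4, with adjusted p-values from 0.0168 to 0.14 over all 15.

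The FOXA genes encode forkhead factors that share a DNA-binding domain. FOXA1 (ENSG00000129514.6; chromosome 14, 37589552 to 37596059, minus strand) had 22.5, 21.3, 23.7 and 22.9 CPM in the empty-vector libraries and 18.6, 17.6, 23.2 and 18.9 CPM in the ADRA2A libraries. ADRA2A replicate 3 was in the empty-vector range and the remaining ADRA2A libraries were below it. The log2 fold change of FOXA1 was -0.20 ± 0.08 (SE, 95% interval -0.38 to -0.03; edgeR adjusted p = 0.0543), and it was -0.30 without ADRA2A replicate 3 (edgeR adjusted p = 0.00458) and -0.23 without empty-vector replicate 2 (edgeR adjusted p = 0.0477).

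FOXA2 (ENSG00000125798.14; chromosome 20, 22580998 to 22585455, minus strand) had 15.3, 13.8, 17.1 and 16.6 CPM in the empty-vector libraries and 14.1, 16.3, 15.1 and 16.6 CPM in the ADRA2A libraries. The groups covered nearly the same range. Its log2 fold change was -0.02 ± 0.09 (SE), with a 95% interval from -0.20 to 0.17 (edgeR adjusted p = 0.892). That interval does not reach the changes of HNF4A, HNF4G or CDX2.

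FOXA3 (ENSG00000170608.3; chromosome 19, 45863989 to 45873797, plus strand) had 7.50, 8.48, 7.84 and 9.16 CPM in the empty-vector libraries and 8.65, 9.37, 10.1 and 11.0 CPM in the ADRA2A libraries. The ranges overlapped at their ends. The log2 fold change of FOXA3 was 0.25 ± 0.11 (SE, 95% interval 0.02 to 0.48; edgeR adjusted p = 0.0711), and the adjusted p was 0.0496 without empty-vector replicate 4 and 0.0435 without ADRA2A replicate 1.

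Summed per length, the 3 FOXA genes had 38.8 ± 2.26 TPM in the empty-vector and 38.6 ± 2.56 TPM in the ADRA2A cells (SD, 4 libraries each), a difference far below the spread between replicates. The make-up of that sum differed more. FOXA1 gave 36.6% to 39.3% of it in empty-vector and 30.5% to 37.1% in ADRA2A libraries, while FOXA3 gave 23.2% to 27.7% and 29.3% to 32.4%. The ratio of FOXA1 to FOXA3 counts was 3.01, 2.51, 3.02 and 2.50 in the empty-vector and 2.15, 1.88, 2.30 and 1.72 in the ADRA2A libraries, with no overlap. The log2 ratio was lower by a difference of -0.46 (exact two-sided permutation p = 0.0286; adjusted p = 0.0714 over the 5 ratios). The ratios of FOXA1 to FOXA2 (log2 difference -0.20; exact permutation p = 0.143, adjusted 0.179) and of FOXA2 to FOXA3 (log2 difference -0.26; exact permutation p = 0.0857, adjusted 0.143) overlapped between the groups. All 64 deposited values of the 8 genes were whole numbers, so no fraction of a count was divided between these paralogs.

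**Figure D2:**
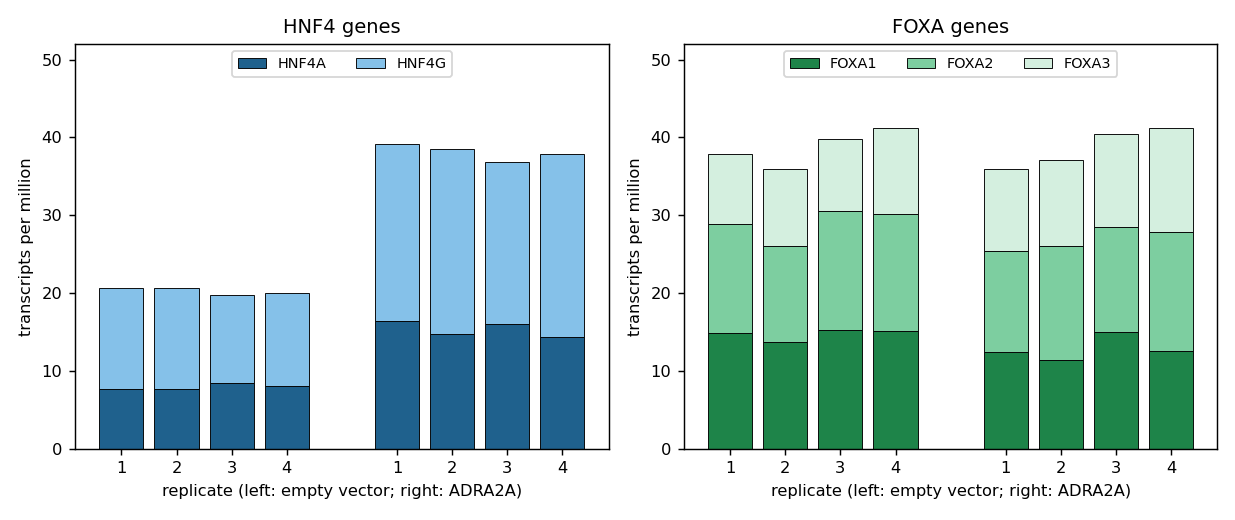
Stacked TPM (y axis, from 0) of the HNF4 genes (left panel) and FOXA genes (right panel) in each library, with empty-vector replicates on the left and ADRA2A replicates on the right of each panel. The HNF4 sum lies near 20.3 TPM and then 38.1 TPM, while the FOXA sum stays between 35.8 and 41.2 TPM in all 8 libraries.

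Per length, the order of the 8 genes differed between the groups. In the empty-vector cells it ran from FOXA1 (14.8 TPM) through FOXA2 (14.2), HNF4G (12.3), GATA6 (11.4), FOXA3 (9.82), HNF4A (7.96) and PDX1 (2.95) to CDX2 (1.34 TPM). Each neighbouring pair from FOXA1 down to FOXA3 overlapped between libraries, and the steps from FOXA3 to HNF4A, to PDX1 and to CDX2 did not. In the ADRA2A cells the order was HNF4G (22.7 TPM), HNF4A (15.4), FOXA2 (14.1), FOXA1 (12.8), FOXA3 (11.7), GATA6 (9.88), PDX1 (4.15) and CDX2 (3.78 TPM). There HNF4G stood clear of HNF4A, each neighbouring pair from HNF4A down to GATA6 overlapped, and PDX1 overlapped with CDX2. HNF4A ranked 2 among the 8 genes in the ADRA2A cells with the canonical transcript as length and 6 with the union of its exons. By TPM, 56.9% of the genes tested lay below HNF4G in the ADRA2A cells. For CDX2 that share was 8.6% in the empty-vector and 20.1% in the ADRA2A cells.

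Chromosomal neighbours were measured because the genes of a stretch can move together. GATA6 sat in such a stretch: all 25 other tested genes within 5 Mb had a log2 fold change below 0. Of these, 14 were called lower (against 21.1% of all genes tested). The median of the 25 was -0.21, equal to the value of GATA6 itself. The part of the stretch in the change of GATA6 was not tested. FOXA2 lay among genes that were mostly lower, with 34 of 40 below 0, 22 called lower and a median of -0.25, against its own -0.02.

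The genes that rose did so against flat or slightly lower surroundings. Within 5 Mb of HNF4A, 27 of 62 tested genes were above 0, the median was -0.06, and HNF4A ranked 2 of 63 with itself included. Around HNF4G the median of 22 genes was 0.02, and HNF4G had the highest log2 fold change in the window. CDX2 was the highest of 40 and PDX1 ranked 6 of 40, in windows with a median of -0.12. Of the tested genes within 100 kb, FITM2 (log2 fold change 0.21 ± 0.10; edgeR adjusted p = 0.0882) and TTPAL (-0.25 ± 0.07; edgeR adjusted p = 0.00452) flanked HNF4A. LINC00543, a non-coding RNA gene between PDX1 and CDX2, had 5 to 17 counts and was not called (log2 difference 0.80 with an SE of 0.38; edgeR adjusted p = 0.0988).

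The genes beside FOXA1 and FOXA3 were near 0, unlike those around FOXA2. MIPOL1, which lies 10.4 kb from FOXA1, had a log2 fold change of 0.03, and SYMPK and IRF2BP1 beside FOXA3 had -0.05 and -0.03. Within 5 Mb the medians were -0.04 for FOXA1 (29 genes) and -0.05 for FOXA3 (218 genes). Antisense and overlapping genes held few counts: HNF4A-AS1 had 0, GATA6-AS1 had 1 to 7 and TTC6, which overlaps FOXA1, had 5 to 20 counts per library.

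**Figure D3:**
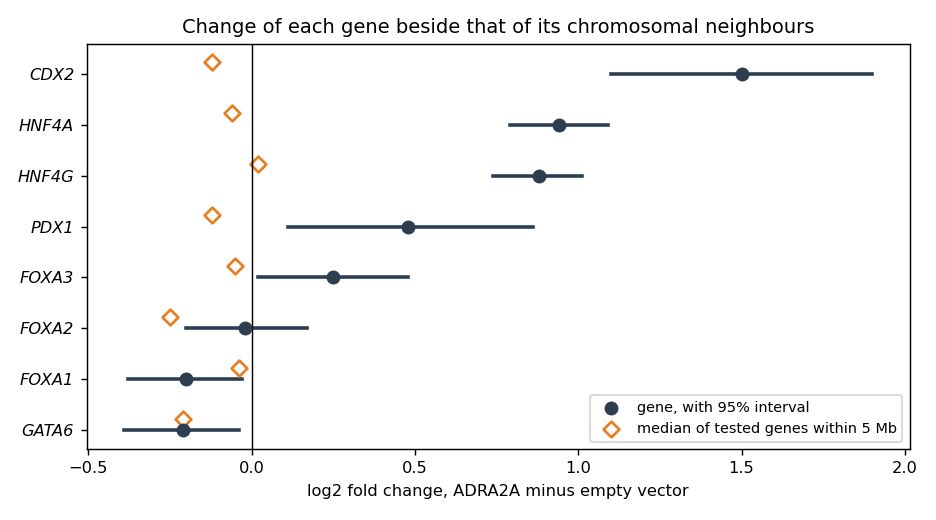
Log2 fold change (x axis, ADRA2A minus empty vector) of each gene (filled circle, line for the 95% interval) and the median of the other tested genes within 5 Mb (open diamond, drawn just above). CDX2, HNF4A and HNF4G lie far to the right of their neighbours' medians, and GATA6 lies on that of its own, -0.21.

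**Figure D4:**
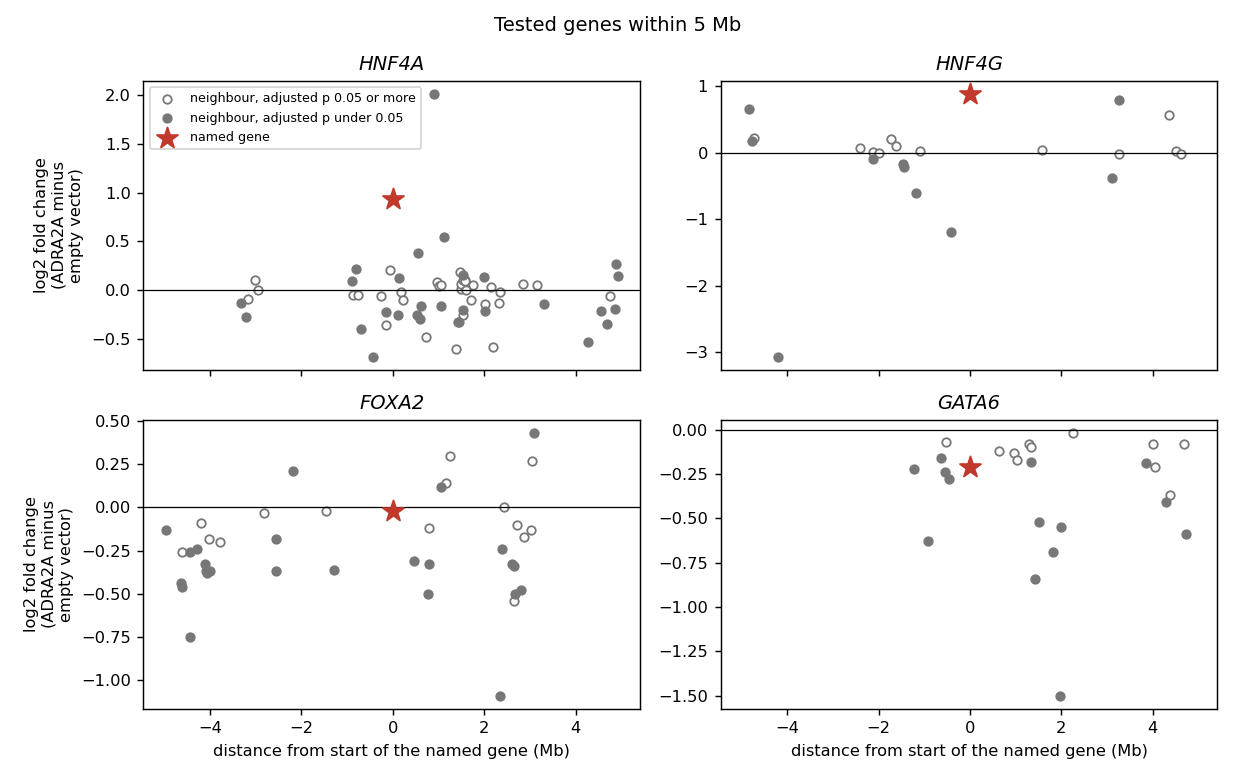
Log2 fold change (y axis) of each tested gene within 5 Mb against its distance in Mb from the start of HNF4A, HNF4G, FOXA2 or GATA6 (red star); filled grey points have an edgeR adjusted p under 0.05. All 25 neighbours of GATA6 lie below 0, and 34 of the 40 neighbours of FOXA2 do.

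The genes with the most similar pattern over the 8 libraries were found by the root mean square difference of centred log2 CPM, over genes that averaged 10 CPM or more. For HNF4A they were IGFBP1, which encodes an insulin-like growth factor binding protein, at 0.069 and MOB3B at 0.071. For HNF4G they were ITM2B at 0.059 and MGAT3, a glycosyltransferase gene, at 0.060. For CDX2 they were LCN2, which encodes lipocalin 2, at 0.148 and CYP4F3 at 0.165. These are the closest of about 10159 genes in a set where many moved with the groups.

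Other transcription factors of the endoderm, gut and pancreas were mixed. This list and those that follow were chosen with earlier results of these data known, so their shares are descriptions only. Of 32 listed genes 14 were tested, 6 of them called higher, 3 lower and 5 not called, with a median log2 fold change of 0.16 (against 42.7% called and a median of 0.00 over all genes). The number called lower was 1 without empty-vector replicate 3, ADRA2A replicate 1 or ADRA2A replicate 3. NR5A2, called higher, passed the filter on low counts only through the ADRA2A libraries, and NKX6-1, not called, only through the empty-vector libraries. Without these genes, a count added after the data were seen, 5 of 12 were called higher and 3 lower, with a median of 0.16. ELF3, an epithelial ETS factor gene, rose from 240 ± 12.7 to 381 ± 15.0 CPM (SD, 4 libraries each; log2 fold change 0.66 ± 0.04 SE; edgeR adjusted p = 7.73e-11). ONECUT2, which encodes a liver and pancreas factor, rose by 0.58 on the log2 scale (SE 0.07; edgeR adjusted p = 8.32e-07).

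The duct factor SOX9 fell from 131 ± 3.31 to 113 ± 2.74 CPM (SD, 4 libraries each; log2 fold change -0.21 ± 0.04 SE; edgeR adjusted p = 0.000161). MNX1, a homeobox gene of the early pancreas, had -0.31, and EHF, an ETS factor gene, -0.10, both called lower. PTF1A, NKX2-2, NEUROG3 and NEUROD1, which drive acinar or endocrine fates, and the gut genes CDX1 and ISX had 0 counts in every library.

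Of 18 partner proteins that bind these factors, 16 were tested, with 7 higher, 1 lower and a median log2 fold change of 0.08. With PPARGC1A counted, 8 of the 16 were called, against 42.7% of all genes tested. The number called lower was 2 without ADRA2A replicate 2. MEIS1, which encodes a homeobox partner of PDX1 and PBX proteins, rose from 22.5 ± 1.01 to 44.7 ± 5.45 CPM (SD, 4 libraries each; log2 fold change 0.99 ± 0.08 SE; edgeR adjusted p = 3.26e-09). The nuclear receptor coactivator genes NCOA1 and NCOA2 rose by log2 fold changes of 0.47 and 0.39 (edgeR adjusted p = 4.06e-05 and 0.000203). PPARGC1A, which encodes the HNF4A coactivator PGC-1 alpha, fell from 2.88 ± 0.320 to 0.779 ± 0.272 CPM (SD, 4 libraries each; log2 fold change -1.87 ± 0.27 SE; edgeR adjusted p = 1.54e-05). PPARGC1A, the 1 gene called lower, passed the filter only through the empty-vector libraries. Without it, a count added after the data were seen, 7 of 15 were called higher and 0 lower. The median of the 15 was 0.1 on the log2 scale. NR0B2, a repressive partner, had 0 counts throughout.

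Genes known as HNF4A targets in liver and gut, also listed with earlier results of these data known, were mostly silent. Of 26 genes only 5 were tested, 3 of them called higher (against 21.6% of all genes tested) and 0 lower (against 21.1%). In 10 genes there was no count in any library, among them APOB, APOC3 and TTR. By its empty-vector libraries alone, APOH, 1 of the 5, would not have passed the filter on low counts. Without it, a count added after the data were seen, 3 of 4 were called higher and 0 lower, with a median log2 fold change of 0.98. SERPINA1, the alpha-1 antitrypsin gene, rose from 346 ± 21.1 to 922 ± 42.4 CPM (SD, 4 libraries each; log2 fold change 1.42 ± 0.04 SE; edgeR adjusted p = 3.20e-15). AGT, the angiotensinogen gene, rose from 5.48 ± 0.612 to 28 ± 2.05 CPM (SD, 4 libraries each; log2 fold change 2.35 ± 0.09 SE; edgeR adjusted p = 2.18e-13). APOM and APOH had log2 fold changes of 0.38 and 0.42 and were not called (edgeR adjusted p = 0.178 and 0.432). The other 21 genes of the list were too scarce to test. With no filter on low counts 1 of them, APOA1, with at most 6 counts in a library, was called lower (edgeR adjusted p = 0.0408). In the fit without ADRA2A replicate 4, AMBP, with 6 to 22 counts in a library, was tested and called higher (edgeR adjusted p = 0.0381).

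Intestinal genes linked to CDX2 were likewise listed with earlier results of these data known. Of the 20 genes, 7 were tested, with 6 called higher and 0 lower. LGALS4 and HEPH are among the 6 and passed the filter only through the ADRA2A libraries. Without them, a count added after the data were seen, 4 of 5 were called higher (against 21.6% of all genes tested), and their median was 1.10 on the log2 scale. With a filter at a mean of 50 counts 3 were called higher. CDHR2, a brush border protocadherin gene, rose from 3.82 ± 0.742 to 20.5 ± 3.06 CPM (SD, 4 libraries each; log2 fold change 2.42 ± 0.14 SE; edgeR adjusted p = 2.57e-11). VIL1, which encodes the microvillus protein villin, rose from 10.7 ± 0.982 to 23.0 ± 1.99 CPM (SD, 4 libraries each; log2 fold change 1.10 ± 0.09 SE; edgeR adjusted p = 5.04e-09). CDH17, the liver-intestine cadherin gene, rose from 1.20 ± 0.221 to 4.09 ± 0.255 CPM (SD, 4 libraries each; log2 fold change 1.76 ± 0.21 SE; edgeR adjusted p = 1.29e-06).

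The remaining calls in that list were KRT20 (log2 fold change 0.87), LGALS4 and HEPH. LGALS4 averaged 0.186 CPM in the empty-vector cells, and HEPH had 0 counts in all 4 empty-vector libraries against 13 to 23 in the ADRA2A libraries, at least 6.25-fold higher when 3 counts are allowed per empty-vector library. CDKN1A was not called (log2 fold change -0.01 ± 0.06 SE; edgeR adjusted p = 0.939). GUCY2C, SI, SLC26A3, CA1 and TFF3 had 0 counts in every library, as did CDX1 and ISX.

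Gland genes linked to FOXA factors and GATA6 were 14 tested of 20 listed. Of these, 10 were called higher (against 21.6% of all genes tested) and 3 lower (against 21.1%), with a median log2 fold change of 0.51. This list, too, was chosen with earlier results of these data known, so the shares are descriptions only. MUC1, an epithelial mucin gene, rose from 279 ± 11.9 to 483 ± 24.7 CPM (SD, 4 libraries each; log2 fold change 0.79 ± 0.04 SE; edgeR adjusted p = 4.76e-12). MUC13 rose from 1.36 ± 0.261 to 8.25 ± 0.959 CPM (SD, 4 libraries each; log2 fold change 2.59 ± 0.17 SE; edgeR adjusted p = 3.68e-10), and FGFR4, a fibroblast growth factor receptor gene, by a log2 fold change of 0.60 (edgeR adjusted p = 2.09e-09). CDH1, the E-cadherin gene, fell from 412 ± 11.9 to 327 ± 10.9 CPM (SD, 4 libraries each; log2 fold change -0.33 ± 0.03 SE; edgeR adjusted p = 1.68e-07). ANXA10 and VSIG1, both known from gastric epithelium, had -0.35 and -0.69 and were called lower.

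**Figure D5:**
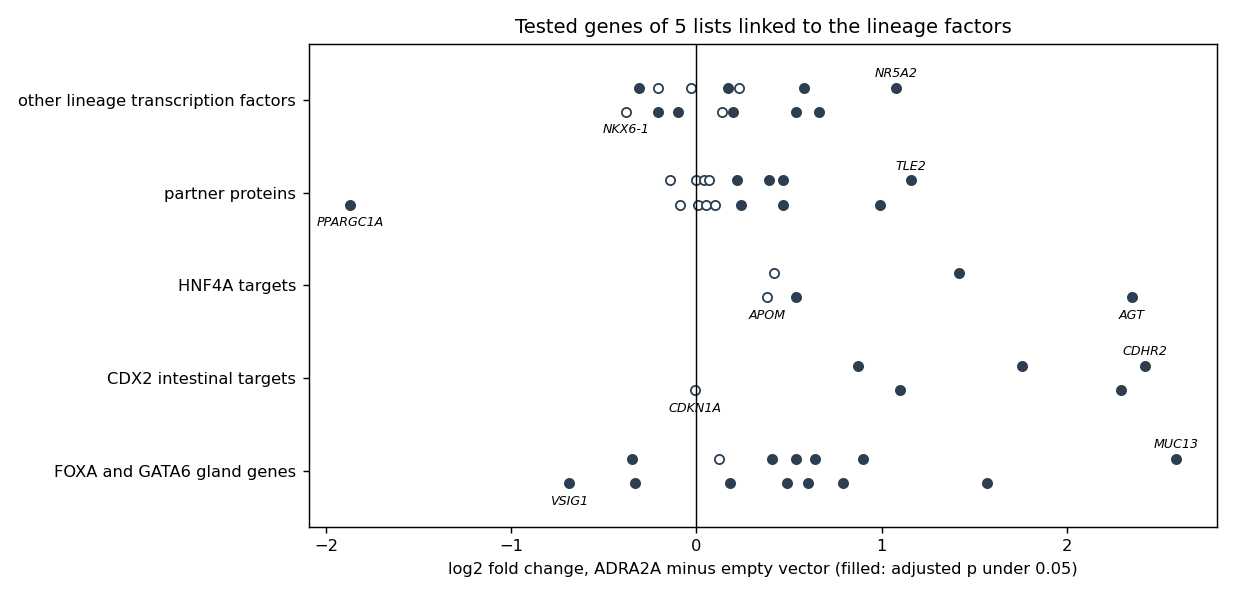
Log2 fold change (x axis, ADRA2A minus empty vector) of each tested gene in the 5 lists of partner factors and linked genes; filled points have an edgeR adjusted p under 0.05, and the lowest and highest gene of each list are named. HEPH, with 0 counts in the empty-vector cells, is left out; CDHR2 (2.42), AGT (2.35) and MUC13 (2.59) mark the upper ends of their lists.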

How the data were processed

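Estimated counts for 8 libraries of CFPAC-1 cells were deposited by the authors as 1 gene-level table, RSEM output by its name. The submitters' processing notes list cutadapt, STAR, RSEM, DESeq2 and hg38. Versions, annotation release and strand use were not given in the sources used here. All 8 columns were matched to samples by the name in their titles. Estimated counts were rounded, filtered with filterByExpr (14785 genes kept), scaled by TMM and tested with edgeR 4.0.16 (glmQLFit, glmQLFTest) with the genotype as the only term and all 8 libraries in the fit. Adjusted p-values cover all genes tested. A standard error is the absolute log2 fold change divided by the square root of F, and the 95% interval uses the test's t quantile. TPM used canonical transcript lengths of GENCODE 44 on GRCh38. Ratios of 2 genes were tested by exact permutation over the 70 divisions of the libraries. The libraries were treated as unpaired. Correlations of deviations lay between -0.042 and 0.07 for same-numbered libraries and between -0.074 and 0.112 for differently numbered ones. Such values cannot show whether same-numbered samples were handled together. The genes and lists were chosen with earlier results of these data known. From each list up to 3 called genes per direction with the smallest p were named by rule, with near neighbours and similar patterns. All others (such as KRT20, LGALS4, HEPH, APOM, APOH, CDKN1A and genes at 0) were named after their values were seen. Some genes of the lists are counted but not reported here by name.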

Additional observations from a re-analysis of the deposited data

How the results depend on the processing

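HNF4A, HNF4G and CDX2 kept their direction and their calls in all 15 other fits, which changed the scaling, tool or filter, added the replicate number as a block, or left out a library. The number of genes called (6314) lay between 5823 and 6550 under the 7 other settings and between 5703 and 6042 with 1 library left out. With the replicate block 6400 genes were called. PDX1 then had 0.47 (adjusted p = 0.0598) and GATA6 -0.21 (adjusted p = 0.0544), no longer called, while FOXA1 at -0.21 became called (adjusted p = 0.0305). FOXA1 was also called with upper quartile factors (-0.22), no filter (-0.20) and the filter at a mean of 50 counts (-0.21). GATA6 was not called with DESeq2 (-0.22), limma voom (-0.21) or no filter (-0.21). An exact permutation test of log2 CPM, added after the data were seen, called neither PDX1 (0.47, p = 0.0857) nor GATA6 (-0.21, p = 0.0571). The number of the 8 genes called lower, 1 in the report, was 0 with DESeq2 and voom and 2 with upper quartile factors and with the filter at a mean of 50 counts, and it lay between 0 and 1 with a library left out. In each case the cause was not tested.

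With 1 library left out, log2 fold changes lay between -0.30 and -0.16 for FOXA1, between 0.19 and 0.31 for FOXA3, between 0.40 and 0.62 for PDX1 and between -0.27 and -0.17 for GATA6. FOXA2 lay between -0.07 and 0.03 and changed sign without empty-vector replicate 3 (0.03), empty-vector replicate 4 (0.01) or ADRA2A replicate 1 (0.03), and it was called in none of these fits. The log2 ratio difference lay between -0.53 and -0.39 for FOXA1 to FOXA3, between -0.33 and -0.19 for FOXA2 to FOXA3 and between 0.94 and 1.29 for CDX2 to PDX1. All 3 had an adjusted exact permutation p of 0.0476 without empty-vector replicate 2. With any other library left out, it lay between 0.0714 and 0.143 for FOXA1 to FOXA3 and for CDX2 to PDX1. For FOXA2 to FOXA3 it then lay between 0.143 and 0.238. Neighbourhood medians with 1 Mb in place of 5 Mb were -1.19 for HNF4G, from 1 gene, 0.03 for FOXA1, -0.32 for FOXA2 and -0.16 for GATA6. PDX1 and CDX2, with at most 100 counts in a library, are the least precise of the 8 genes.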

Other observations

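Among the other lineage factors, SOX2, a foregut and stem cell factor gene, was far above the 8 genes per length, at 81.4 ± 2.25 TPM in the empty-vector and 79.9 ± 0.98 TPM in the ADRA2A cells (SD, 4 libraries each), and its log2 fold change was -0.03 (edgeR adjusted p = 0.53). ISL1, an islet factor gene, was expressed without islet hormones, at 10.5 ± 0.446 and 9.17 ± 0.99 TPM.

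Over RefSeq promoters of 300 bases, the FOXA letters TGTTTAC or TGTTTGC stood in 7.0% of 3600 promoters of genes called higher, in 4.87% of 3612 promoters of genes called lower and in 5.48% of 15532 promoters of genes tested. The HNF4 letters CAAAGTCCA stood in 18 of the promoters of genes called higher (0.5%) and in 11 of those called lower (0.305%). Of the promoters of genes tested 52 held them (0.335%). The GATA letters AGATAA stood in 6.58% of promoters of genes called higher, 5.81% of those called lower and 5.85% of those tested. The CDX letters TTTATNG stood in 6.44% of promoters of genes called higher, 6.48% of those called lower and 6.11% of those tested. These shares are descriptions of the sequence and were not tested.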
